A study of Homo sapiens with 12 samples.

Results

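The comparison described here asked where 2 human pancreatic ductal adenocarcinoma (PDAC) cell lines, MIA PaCa-2 and Capan-1, responded differently to knockdown of focal adhesion kinase (FAK, encoded by PTK2). For each probe, the change from control to FAK hairpins in Capan-1 was subtracted from the same change in MIA PaCa-2, so that a positive line difference means a more positive response in MIA PaCa-2. The members were the probes with signal in both lines, taken as a detection p-value under 0.05 on at least 2 arrays of each line. They numbered 16848 probes for 13400 gene names, of 24207 probes detected on at least 2 of the 12 arrays and 47228 probes on the array.

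Each line stably carried a doxycycline-inducible short hairpin in the PLKO.1 tet-on backbone, and puromycin selection used 3.5 ug/ml (MIA PaCa-2) or 1.5 ug/ml (Capan-1). The hairpin was a scrambled control (shCtrl) or one of a pair directed at FAK (sh1209 and sh1319). The Capan-1 labels write the latter as shFAK1319, which was taken to be the same hairpin as sh1319 in MIA PaCa-2. All cells, controls included, received doxycycline at 50 ng/ml for 96 hours. Total RNA was measured on 2 Illumina bead arrays for each of the 6 groups, and the 12 arrays lay on 1 chip. Nothing in the labels states that a group's arrays stand for independent cultures, so p-values measure only the spread between these arrays, which may be technical. Line and puromycin dose cannot be told apart. Median deposited intensity ranged from 87.7 to 97 and the number of probes detected from 16259 to 19814 over the 12 arrays, and replicate arrays of a group correlated with r of 0.991 to 0.995 across probes.

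FAK is a cytoplasmic tyrosine kinase that is recruited to clustered integrins at focal adhesions. It passes matrix attachment on to SRC, the RAS-ERK cascade, PI3K and the actin cytoskeleton, and through tension on the cytoskeleton to the transcriptional co-activators YAP and TAZ. In PDAC it has been studied for its part in the response to the collagen-rich stroma. Capan-1 keeps a glandular, mucin-producing epithelial character, and MIA PaCa-2 has a more mesenchymal one.

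The markers of the lines followed that description in part. All 10 ductal epithelial markers were detected in Capan-1 and 4 of 10 in MIA PaCa-2. KRT19, a ductal keratin, lay between 12.29 and 12.61 log2 intensity on the 6 Capan-1 arrays and between 4.26 and 6.05 on the 6 MIA PaCa-2 arrays. VIM, the mesenchymal intermediate filament, reached 13.08 to 13.35 in MIA PaCa-2 on its brighter probe and 5.60 to 6.15 in Capan-1. ZEB1 was detected in neither line and CDH2 in Capan-1 alone, so the mesenchymal label of MIA PaCa-2 rested here on VIM and AXL.

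On its brighter probe the targeted gene, PTK2, was lower with both hairpins in both lines, and the knockdown was deeper in MIA PaCa-2. The log2 intensity in MIA PaCa-2 was 9.45 and 9.46 with shCtrl, 7.28 and 7.14 with sh1209, and 6.92 and 7.03 with sh1319. In Capan-1 it was 10.35 and 10.17 with shCtrl, 9.66 and 9.63 with sh1209, and 8.48 and 8.49 with sh1319. No FAK hairpin array overlapped with the control arrays of its line. The mean over both hairpins corresponded to 19.4% of the control intensity for MIA PaCa-2 and 43.7% for Capan-1. This gave a line difference of -1.17 (SE 0.14, limma adjusted p = 0.00021). It was -1.63 with sh1209 and -0.71 with sh1319, and the hairpins differed from each other in it (-0.93, limma adjusted p = 0.0028). A dimmer PTK2 probe, between 4.54 and 6.03 on all arrays, showed no mean fall in MIA PaCa-2, at 100.6% of control, and was at 72.7% in Capan-1. It did not pass the test for a line difference (0.47, limma adjusted p = 0.15). The unequal knockdown moves with every line difference below, and its part in them was not tested.

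Across the members, 2764 of 16848 probes (16.4%) responded differently in the 2 lines at a Benjamini-Hochberg adjusted p under 0.05 (limma), for 2489 gene names. The response was higher in MIA PaCa-2 for 1465 probes (8.7%) and lower for 1299 (7.71%), and 753 differed by at least 1 on the log2 scale. Over all probes tested the share was 14.4%. With the arrays scaled on the median of all probes in place of quantile normalization, 1392 probes passed and 33.4% of them were higher in MIA PaCa-2, against 53% in the main fit. Without one or the other of the Capan-1 shCtrl arrays, 1743 and 1736 passed. With replicate arrays averaged and the spread between the hairpins as the error, no member passed, and 827 had an unadjusted p under 0.05.

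Most of the line differences were changes called in 1 line alone. FAK knockdown changed 4669 members in MIA PaCa-2 (27.7%), with 2319 up and 2350 down, and 3278 in Capan-1 (19.5%), with 1469 up and 1809 down. Of the 2764 probes that differed between lines, 1394 were called in MIA PaCa-2 and not in Capan-1, and 694 in Capan-1 and not in MIA PaCa-2. A further 189 changed in the same direction in both lines, 150 of them by more in MIA PaCa-2, and 311 (1.85% of members) changed in opposite directions. The remaining 176 were called in neither line alone. Of the 1483 probes called in both lines, 983 moved in the same direction and did not pass the test for a line difference. The smallest line difference called was 0.43 and the median SE was 0.18, and smaller differences were not detectable with 2 arrays a group.

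The lines, which share no array, correlated weakly in their responses. Across the 16848 probes Pearson r was 0.25 and Spearman rho was 0.26. With sh1209 alone r was 0.15 and with sh1319 alone it was 0.34. These values describe probes, which are not independent replicates, and every change in a line shares the control arrays of that line.

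**Figure D1:**
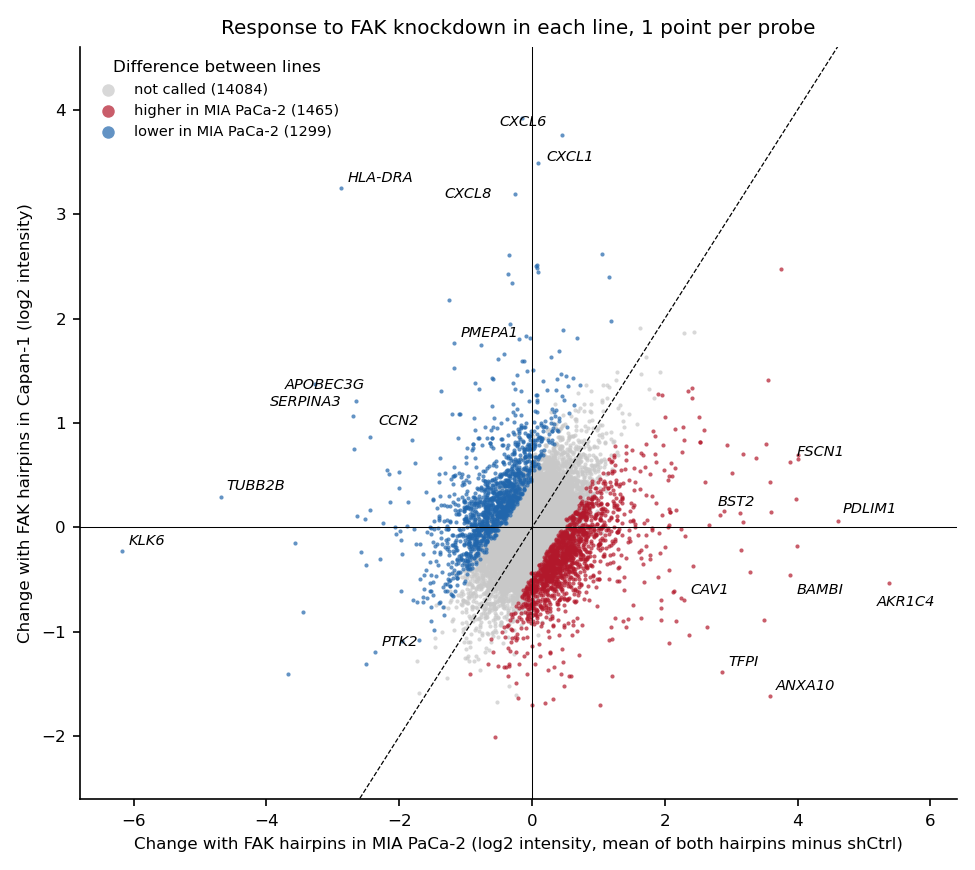
Change with FAK hairpins (mean of sh1209 and sh1319 minus shCtrl, log2 intensity) in MIA PaCa-2 on the x axis and Capan-1 on the y axis, 1 point per member probe, with the 1465 probes higher in MIA PaCa-2 in red, the 1299 lower in blue, the others in grey and the line of equal change dashed. The x axis spans a wider range than the y axis: KLK6 and AKR1C4 lie at the far left and right near the horizontal axis, and CXCL6, CXCL1 and CXCL8 at the top near the vertical axis.

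Genes with the largest positive line differences rose in MIA PaCa-2. The Capan-1 changes of these genes were smaller rises, falls or changes that did not pass the test. FSCN1, which bundles actin in filopodia and invasive protrusions, was 7.11 and 7.11 with shCtrl in MIA PaCa-2, 11.24 and 11.15 with sh1209, and 10.85 and 10.72 with sh1319. In Capan-1 it was 10.04 and 9.92 with shCtrl, 10.20 and 10.28 with sh1209, and 10.98 and 10.98 with sh1319. Both lines rose, by 3.88 for MIA PaCa-2 and 0.63 for Capan-1, and the knocked-down MIA PaCa-2 cells reached the range of Capan-1. FSCN1 thus had a line difference of 3.26 (SE 0.14, limma adjusted p = 6.5e-08).

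BAMBI, a pseudoreceptor that dampens TGF-beta signalling, was 5.29 and 5.65 with shCtrl in MIA PaCa-2, 9.44 and 9.30 with sh1209, and 9.41 and 9.28 with sh1319. The Capan-1 arrays read 8.65 and 8.75 with shCtrl, 7.82 and 7.78 with sh1209, and 8.70 and 8.66 with sh1319. The rise in MIA PaCa-2 was alike with both hairpins, and the fall in Capan-1 came with sh1209. For BAMBI the line difference was 4.35 (SE 0.16, limma adjusted p = 3.6e-08).

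BST2, the interferon-inducible membrane protein tetherin, was 4.81 and 5.49 with shCtrl in MIA PaCa-2, 8.49 and 8.60 with sh1209, and 8.99 and 8.92 with sh1319. On the 6 Capan-1 arrays it lay between 8.76 and 9.12. Knockdown in MIA PaCa-2 thus brought BST2 to about the intensity that Capan-1 held throughout. Its line difference was 3.45 (limma adjusted p = 2.4e-06).

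CAV1, the coat protein of caveolae, was 8.47 and 8.18 with shCtrl in MIA PaCa-2, 9.88 and 10.03 with sh1209, and 11.22 and 11.32 with sh1319. It fell in Capan-1, from 9.02 and 8.98 with shCtrl to 7.94 and 7.70 with sh1209 and 8.79 and 8.78 with sh1319. The lines differed in the CAV1 response by 2.98 (limma adjusted p = 5.2e-07). SLC39A8, a zinc and manganese importer, rose by 3.18 in MIA PaCa-2 and differed from control by 0.05 in Capan-1, for a line difference of 3.12 (limma adjusted p = 2.2e-05). FAR2, a fatty acyl-CoA reductase, rose by 2.24 in MIA PaCa-2 and fell by 0.67 in Capan-1, with a line difference of 2.91 (limma adjusted p = 1.5e-07). AKR1C4, an aldo-keto reductase of steroid metabolism, gave the largest positive line difference among members with a current symbol that were detected in every group and had the same sign with each hairpin, 5.91 (limma adjusted p = 3.3e-09). It rose from 5.81 and 6.11 with shCtrl in MIA PaCa-2 to between 10.67 and 11.99 on the 4 FAK hairpin arrays. The AKR1C genes are near-identical in sequence and the probe may read several of them.

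Several genes that were silent or dim in MIA PaCa-2 controls became bright with FAK hairpins. PDLIM1, which binds alpha-actinin on stress fibres, went undetected on both MIA PaCa-2 control arrays. It was higher by at least 8.65-fold under sh1209 and by at least 40.9-fold under sh1319. In Capan-1 its 6 arrays lay between 8.19 and 8.48. SFN, the epithelial 14-3-3 sigma protein, was at least 3.45-fold and 18.9-fold higher in MIA PaCa-2 with sh1209 and sh1319, and fell by 0.88 in Capan-1. These bounds set the bright group's mean against the lowest signal that counted as detected on each array. HAS3, a hyaluronan synthase, was detected on 1 of the 2 shCtrl arrays of MIA PaCa-2, at 4.79 and 4.64, and reached 7.47 and 7.16 with sh1209 and 10.15 and 10.04 with sh1319. In Capan-1 it was at most 4.63 and undetected with sh1319. The line difference passed for all 3 genes (limma adjusted p of 1.3e-08 for PDLIM1, 2.1e-08 for SFN and 1e-07 for HAS3), with no measured size where a group was undetected.

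**Figure D2:**
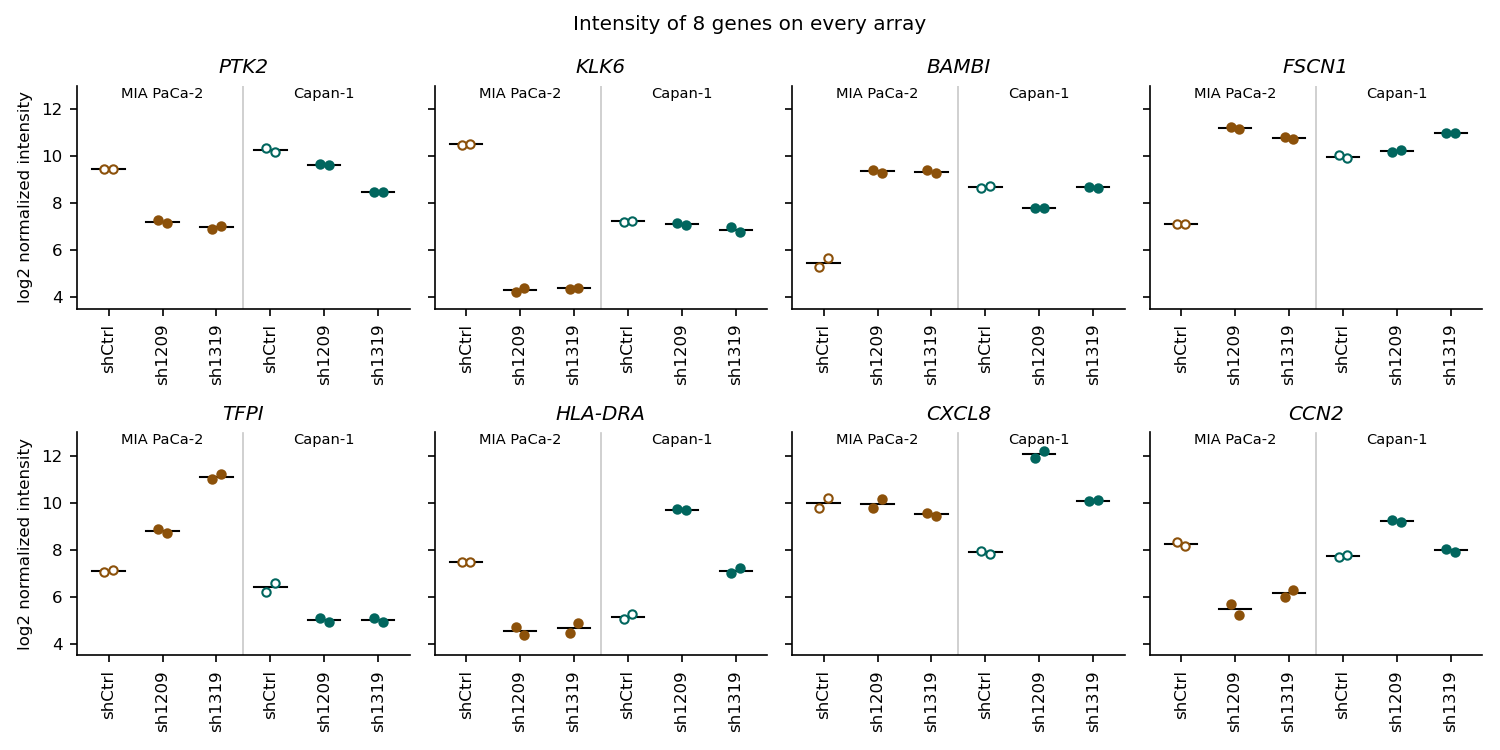
Log2 normalized intensity (y axis) of 8 genes on each of the 12 arrays by hairpin (x axis), MIA PaCa-2 in brown and Capan-1 in green, open points for shCtrl, filled points for FAK hairpins and a bar at the mean of each pair. The 2 arrays of a group lie close together; BAMBI, FSCN1 and KLK6 shift in MIA PaCa-2, CXCL8 in Capan-1, and TFPI, HLA-DRA and CCN2 in opposite directions.

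The largest negative line differences came from genes that fell in MIA PaCa-2, genes that rose in Capan-1 and genes that did both. KLK6, a secreted trypsin-like protease, was 10.50 and 10.52 with shCtrl in MIA PaCa-2 and was not detected on any of the 4 FAK hairpin arrays. The fall was at least 57.5-fold under sh1209 and at least 56-fold under sh1319. The 6 Capan-1 arrays lay between 6.76 and 7.26 and the change there did not pass the test (-0.23, limma adjusted p = 0.18). The KLK6 line difference passed the test (limma adjusted p = 2.6e-09) and has no measured size beyond these bounds. A second KLK6 probe, near background, did not pass (limma adjusted p = 0.92).

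TUBB2B, a beta-tubulin isotype, fell in MIA PaCa-2 from 10.61 and 10.61 with shCtrl to 7.30 and 7.35 with sh1209, and was not detected with sh1319, at least 60.1-fold lower. Its Capan-1 arrays lay between 5.60 and 6.21. SERPINE2, a secreted inhibitor of thrombin and plasminogen activators, fell from 9.40 and 9.31 in MIA PaCa-2 to between 5.64 and 6.08 on the FAK hairpin arrays, and by 0.80 in Capan-1. The line difference was -2.64 for SERPINE2 (limma adjusted p = 9.7e-07) and passed for TUBB2B (limma adjusted p = 4.3e-09).

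TGM2, a transglutaminase that cross-links matrix proteins, was 10.08 and 10.09 with shCtrl in MIA PaCa-2, 6.13 and 6.08 with sh1209, and 8.75 and 8.69 with sh1319. On the Capan-1 arrays it was 9.01 and 9.01 with shCtrl, 10.05 and 10.22 with sh1209, and 9.25 and 9.53 with sh1319. The hairpin arrays did not overlap with the controls in either line, and the line difference was larger with sh1209 (-5.10) than with sh1319 (-1.74, hairpin difference limma adjusted p = 4.3e-07). A second TGM2 probe gave a line difference of -2.33, the third was undetected with both FAK hairpins in MIA PaCa-2, and neither passed the test in Capan-1 alone. SERPINA3, the acute-phase inhibitor alpha-1-antichymotrypsin, fell in MIA PaCa-2 from 12.85 and 12.76 to between 9.64 and 10.56. In Capan-1 it rose with sh1209, from 5.53 and 5.38 to 8.26 and 8.23, and was lower with sh1319, at 4.77 and 4.84. Its line difference of -3.76 averaged -5.87 with sh1209 and -1.66 with sh1319 (hairpin difference limma adjusted p = 6.4e-08).

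For 311 probes the change passed the test in both lines with opposite signs, 168 of them up in MIA PaCa-2 and 143 down. TFPI, the inhibitor of tissue factor-driven coagulation, was 7.07 and 7.12 with shCtrl in MIA PaCa-2, 8.87 and 8.73 with sh1209, and 11.03 and 11.21 with sh1319. In Capan-1 it was 6.21 and 6.60 with shCtrl, 5.10 and 4.94 with sh1209, and 5.10 and 4.93 with sh1319. Both hairpins raised TFPI in MIA PaCa-2 and lowered it in Capan-1, for a line difference of 4.26 (SE 0.18, limma adjusted p = 7.8e-08).

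ANXA10, an annexin expressed in gastric epithelium, was undetected on the MIA PaCa-2 control arrays, and higher by at least 3.22-fold under sh1209 and 35.6-fold under sh1319. It fell in Capan-1, from 12.39 and 12.35 to 10.55 and 10.49 with sh1209 and to 10.99 or just above with sh1319. SEMA3A, a secreted guidance cue, rose in MIA PaCa-2 from 7.80 and 7.94 to between 8.86 and 9.38, and fell in Capan-1 from 8.04 and 7.92 to between 6.51 and 7.35. ELOVL6, which elongates long-chain fatty acids, was undetected on the MIA PaCa-2 control arrays on both of its probes. On the probe named by rule it was higher there by at least 1.65-fold under sh1209 and 1.92-fold under sh1319, and fell by 1.07 in Capan-1. For these 3 genes both hairpins gave the same direction within each line. CALB2, a calcium-binding protein, was an exception: in MIA PaCa-2 it rose with sh1209, from 7.33 and 7.19 to 11.44 and 11.37, and was lower with sh1319, at 5.41 and 5.65. Its line difference was 5.31 with sh1209 and -0.06 with sh1319, and a second CALB2 probe did not pass the test (0.62, limma adjusted p = 0.052).

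HLA-DRA, the alpha chain of the antigen-presenting molecule HLA-DR, had the largest line difference of the 10 genes named for opposite changes. It was 7.47 and 7.50 with shCtrl in MIA PaCa-2, 4.72 and 4.38 with sh1209, and 4.44 and 4.90 with sh1319. In Capan-1 it was 5.05 and 5.26 with shCtrl, 9.74 and 9.68 with sh1209, and 6.99 and 7.21 with sh1319. The control order of the lines was reversed on the FAK hairpin arrays. In MIA PaCa-2 it was detected on 1 of the 2 arrays of each FAK hairpin, so the size of the fall there is limited by the background. The line difference of HLA-DRA was -6.13 (SE 0.21, limma adjusted p = 1.5e-08), -7.49 with sh1209 and -4.76 with sh1319. Across the other normalizations, filters, the replicate block and left-out arrays it lay between -6.24 and -3.41. A second HLA-DRA probe gave a smaller one, -2.67 (limma adjusted p = 1.1e-06), -3.92 with sh1209 and -1.42 with sh1319. Of the leukocyte markers, CD68 and LYZ were detected on all 6 Capan-1 arrays, and PTPRC and CD3E on none. The summed intensity of that list, most of it from CD68 and LYZ, was 3056 to 4416 with FAK hairpins in Capan-1 and 5746 to 6165 with shCtrl, and its part in the HLA-DRA result was not tested.

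APOBEC3G, a cytidine deaminase that restricts retroviruses, fell on 1 of its probes from 8.22 and 8.27 in MIA PaCa-2 to 5.25 and 4.62 with sh1209 and 6.32 and 6.17 with sh1319. In Capan-1 it rose from 5.69 and 5.99 to 6.44 and 6.78 with sh1209 and 7.48 and 7.48 with sh1319. The line difference was -3.87 on that probe (limma adjusted p = 1.1e-06). A second APOBEC3G probe passed too (limma adjusted p = 4.9e-07) and went undetected on the MIA PaCa-2 arrays with sh1209, a fall of at least 11.8-fold. PMEPA1, a TGF-beta target that limits SMAD signalling, was likewise undetected with sh1209 there, at least 2.25-fold lower, and rose by 1.76 in Capan-1. BIRC3, an inhibitor of apoptosis induced by NF-kB, rose in Capan-1 with both hairpins, and in MIA PaCa-2 it was 9.63 and 9.68 with shCtrl, 6.84 and 6.92 with sh1209, and 10.09 and 10.36 with sh1319. The negative mean change of BIRC3 in MIA PaCa-2 thus came from sh1209. CCDC9B fell by 1.21 in MIA PaCa-2 and rose by 1.08 in Capan-1.

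**Figure D3:**
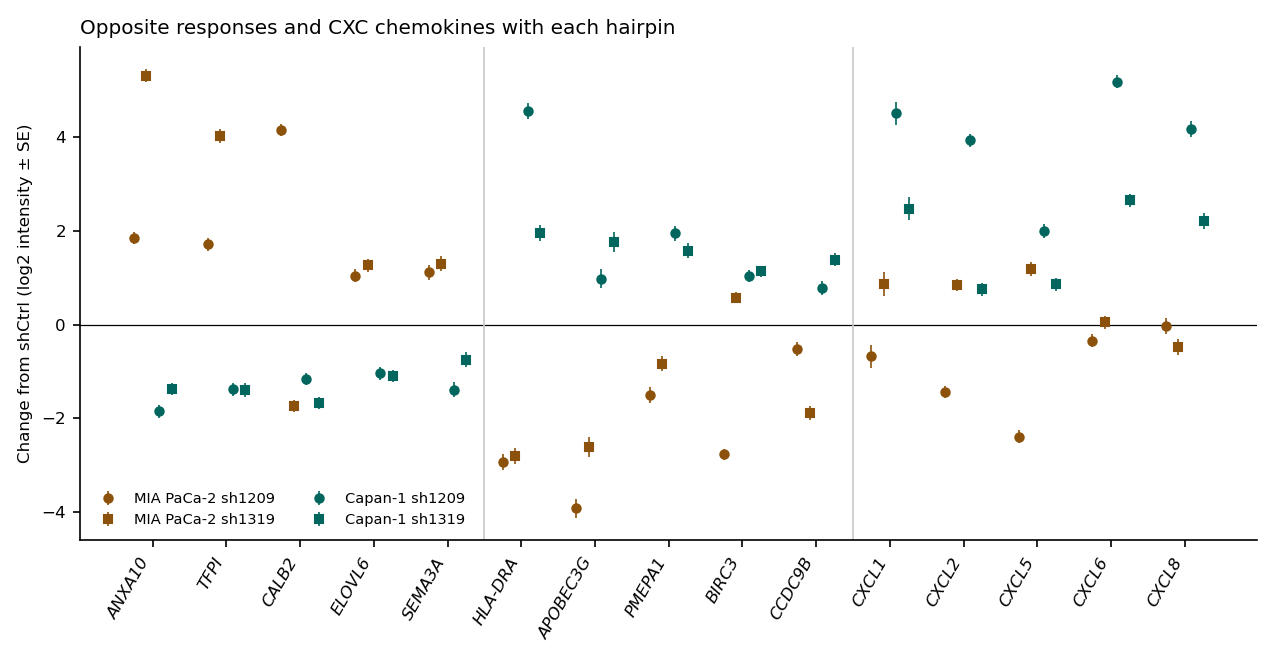
Change from shCtrl (y axis, log2 intensity, bars show the SE from the fit) with sh1209 (circles) and sh1319 (squares) in MIA PaCa-2 (brown) and Capan-1 (green) for 5 genes up in MIA PaCa-2 and down in Capan-1 (left), 5 genes down in MIA PaCa-2 and up in Capan-1 (middle), and 5 CXC chemokine genes (right). CALB2 and BIRC3 change sign between the hairpins in MIA PaCa-2, and so do CXCL1, CXCL2 and CXCL5, while all green points of the chemokines lie above 0. ANXA10 and ELOVL6 were undetected on the MIA PaCa-2 control arrays, and PMEPA1, CXCL6 and the APOBEC3G probe drawn with sh1209 in MIA PaCa-2, so those brown points are fitted values with no measured size.

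The CXC chemokines, secreted attractants of neutrophils, rose in Capan-1 with both hairpins, and averaged over hairpins none of them rose in MIA PaCa-2. CXCL8 was 7.97 and 7.81 with shCtrl in Capan-1, 11.93 and 12.20 with sh1209, and 10.07 and 10.13 with sh1319. In MIA PaCa-2 it was 9.77 and 10.22 with shCtrl, 9.79 and 10.15 with sh1209, and 9.58 and 9.43 with sh1319. On the control arrays Capan-1 lay below MIA PaCa-2, and with each FAK hairpin above it. The CXCL8 line difference was -3.45 (SE 0.21, limma adjusted p = 1.2e-06), and a second CXCL8 probe gave -2.95.

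CXCL1 was 7.09 and 7.24 with shCtrl in Capan-1, 11.66 and 11.68 with sh1209, and 9.88 and 9.38 with sh1319. In MIA PaCa-2 it was 8.90 and 9.66 with shCtrl, 8.64 and 8.55 with sh1209, and 10.41 and 9.87 with sh1319, so that the hairpins lay on either side of the controls (mean change 0.09). On its probe with detected arrays in every group, CXCL6 rose in Capan-1 from 4.95 and 4.45 to 9.50 and 9.83 with sh1209 and 7.22 and 7.29 with sh1319. It lay between 4.49 and 5.30 in MIA PaCa-2 and did not pass the test there (0.45, limma adjusted p = 0.09). A second CXCL6 probe was undetected with sh1209 in MIA PaCa-2. The line differences were -3.40 for CXCL1 and -3.31 for the first CXCL6 probe (limma adjusted p of 2e-05 and 4.4e-06).

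For CXCL2 and CXCL5 the line difference came with sh1209. It was -5.37 with sh1209 and 0.09 with sh1319 for CXCL2, and -4.39 and 0.33 for CXCL5. Over all 20 member probes of the chemokines and inflammatory cytokines, 15 rose and none fell in Capan-1, and 7 rose and 2 fell in MIA PaCa-2. The response was lower in MIA PaCa-2 for 10 probes and higher for 3, 65% against 16.4% of all members. The median was -1.05, beside a median of 0.01 over all members. CASP1, the protease of inflammasomes, and IL1B, the cytokine it cleaves, went the other way. IL1B, undetected on the MIA PaCa-2 control arrays, was higher by at least 8.08-fold under sh1209 and 15.4-fold under sh1319, and its line difference passed (limma adjusted p = 1.4e-07). CASP1, also undetected on those arrays, was higher by at least 4.27-fold and 32.5-fold on 1 of its probes. The CASP1 line difference on that probe passed (limma adjusted p = 5.4e-07), and its change in Capan-1 did not (0.27).

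The promoters of the chemokine genes that rose in Capan-1 are shown because they share a run of letters. In the RefSeq promoter windows (GRCh38.p14, 250 bases before to 50 after the gene start), the NF-kB letters GGAATTTCC, searched on both strands after the expression values had been seen, occurred in 5 of the 5 CXC chemokine genes with a promoter in the table. Of all 10 genes of the chemokine and inflammatory cytokine list with a promoter there, 6 had them, and IL1A and TNFAIP3, also called higher in Capan-1, did not. They occurred in 0.419% of the promoters of all members and 0.472% of all promoters. The 200 bases before the start of the 3 genes with the largest line differences follow, on the gene's strand, with these letters in capitals. CXCL8 lies at chr4:73740369-73740568 (+), CXCL1 at chr4:73869193-73869392 (+) and CXCL6 at chr4:73836478-73836677 (+), and the letters begin at -91, -78 and -89 relative to the start.
CXCL8: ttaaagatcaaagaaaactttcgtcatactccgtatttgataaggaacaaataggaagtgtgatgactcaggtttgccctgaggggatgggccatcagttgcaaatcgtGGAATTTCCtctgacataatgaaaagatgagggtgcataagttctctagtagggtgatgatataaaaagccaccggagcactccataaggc
CXCL1: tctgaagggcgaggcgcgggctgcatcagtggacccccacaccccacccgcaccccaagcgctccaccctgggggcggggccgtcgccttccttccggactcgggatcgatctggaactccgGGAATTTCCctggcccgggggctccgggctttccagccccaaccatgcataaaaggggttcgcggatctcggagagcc
CXCL6: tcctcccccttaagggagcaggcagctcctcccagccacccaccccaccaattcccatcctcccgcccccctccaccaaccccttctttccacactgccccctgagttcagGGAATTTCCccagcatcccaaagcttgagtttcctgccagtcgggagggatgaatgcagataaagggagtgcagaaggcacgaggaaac
A match is a description of the letters in this window and was not tested as a site. Among all genes with a line difference, the letters were in 0.22% of the promoters of genes higher in MIA PaCa-2 and 0.995% of those lower. The lower genes include CXCL8, CXCL1 and CXCL6, whose values had been seen before the letters were chosen and which lie close together on chr4. The share among lower genes is therefore no separate result.

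Targets of YAP and TEAD, the tension-regulated co-activator and its DNA-binding partner, differed between the lines in both directions. Of 21 member probes, 3 were higher and 8 lower in MIA PaCa-2, 52.4% against 16.4% of all members. The median was -0.29, and it was 0.03 with sh1209 and -0.39 with sh1319. CCN2, a matricellular protein also called CTGF, was 8.33 and 8.15 with shCtrl in MIA PaCa-2, 5.70 and 5.22 with sh1209, and 6.01 and 6.27 with sh1319. Its Capan-1 arrays read 7.69 and 7.78 with shCtrl, 9.27 and 9.18 with sh1209, and 8.05 and 7.90 with sh1319. CCN2 fell with both hairpins in MIA PaCa-2, while in Capan-1 it rose with sh1209 and did not pass the test with sh1319 (0.24). Over both hairpins it had a line difference of -3.30 (SE 0.20, limma adjusted p = 9.9e-07) and -2.05 on a second probe.

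IGFBP3, which binds insulin-like growth factors, rose in Capan-1 from 8.88 and 8.69 to between 10.64 and 11 with FAK hairpins, and was at most 5.12 in MIA PaCa-2. GADD45A, a stress-induced growth arrest gene, rose in MIA PaCa-2 on its probe with the larger line difference from 6.90 and 6.95 to between 8.45 and 8.74, and fell by 0.52 in Capan-1. ASAP1, an ARF regulator that binds FAK, fell by 0.92 in MIA PaCa-2 and differed from control by 0.24 in Capan-1 on the probe with its largest line difference, -1.16.

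The CCN2 promoter is shown because it carries the TEAD letters GGAATG more than once. In the 200 bases before its start, chr6:131951373-131951572 (-) in GRCh38.p14, these letters occurred 3 times on the gene's strand, beginning at -169, -104 and -95 relative to it, and are in capitals.
CCN2: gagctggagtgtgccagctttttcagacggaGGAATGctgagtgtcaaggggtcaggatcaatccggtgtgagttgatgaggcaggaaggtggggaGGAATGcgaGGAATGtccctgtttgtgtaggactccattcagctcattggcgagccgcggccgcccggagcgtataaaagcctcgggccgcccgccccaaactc
Across genes, the TEAD letters were in 10.1% of the promoters of genes higher in MIA PaCa-2, 11.8% of those lower and 10.3% of all members. The AP-1 letters TGANTCA were in 4.73%, 4.35% and 4.36%, and the E-box letters CACGTG in 10.3%, 8.83% and 10.5%, both strands searched. None of these shares is a tested difference.

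Genes induced or fed back by the RAS-ERK cascade fell more often than they rose in MIA PaCa-2. Of 31 member probes, 15 had a lower response in MIA PaCa-2 and 5 a higher one, 64.5% against 16.4% of all members. The median line difference was -0.60, and it was -0.54 with sh1209 and -0.77 with sh1319. Of the 31 probes, 16 fell and 6 rose in MIA PaCa-2, and 6 fell and 5 rose in Capan-1. The feedback inhibitor SPRY1 fell by 1.47 and 1.37 on its probes in MIA PaCa-2 and differed from control by 0.06 and 0.21 in Capan-1. DUSP6, an ERK phosphatase, fell by 1.19 in MIA PaCa-2 with a line difference of -1.02 (limma adjusted p = 0.0095), and EGR1, an immediate-early transcription factor, by 1.12 with a line difference of -1.27 (limma adjusted p = 0.00089). FOSL1, an AP-1 subunit, fell in both lines, by 1.79 for MIA PaCa-2 and 0.69 for Capan-1. EPHA2, a receptor tyrosine kinase, fell by 0.97 in MIA PaCa-2 and differed from control by 0.29 in Capan-1.

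IER3, an immediate-early survival gene, was 9.27 and 9.21 with shCtrl in MIA PaCa-2, 6.81 and 7.08 with sh1209, and 7.61 and 7.57 with sh1319. In Capan-1 the hairpins disagreed, with 11.57 and 11.48 on the shCtrl arrays, 12.63 and 12.55 with sh1209 and 10.19 and 10.24 with sh1319. Not all ERK phosphatases followed DUSP6: DUSP5 rose by 1.81 in MIA PaCa-2 and differed from control by -0.02 in Capan-1. EPHA4, another Eph receptor on the list, rose in MIA PaCa-2 from 6.27 and 6.17 to between 8.20 and 8.49, and fell by 0.60 in Capan-1, with a line difference of 2.75 (limma adjusted p = 4.4e-06).

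**Figure D4:**
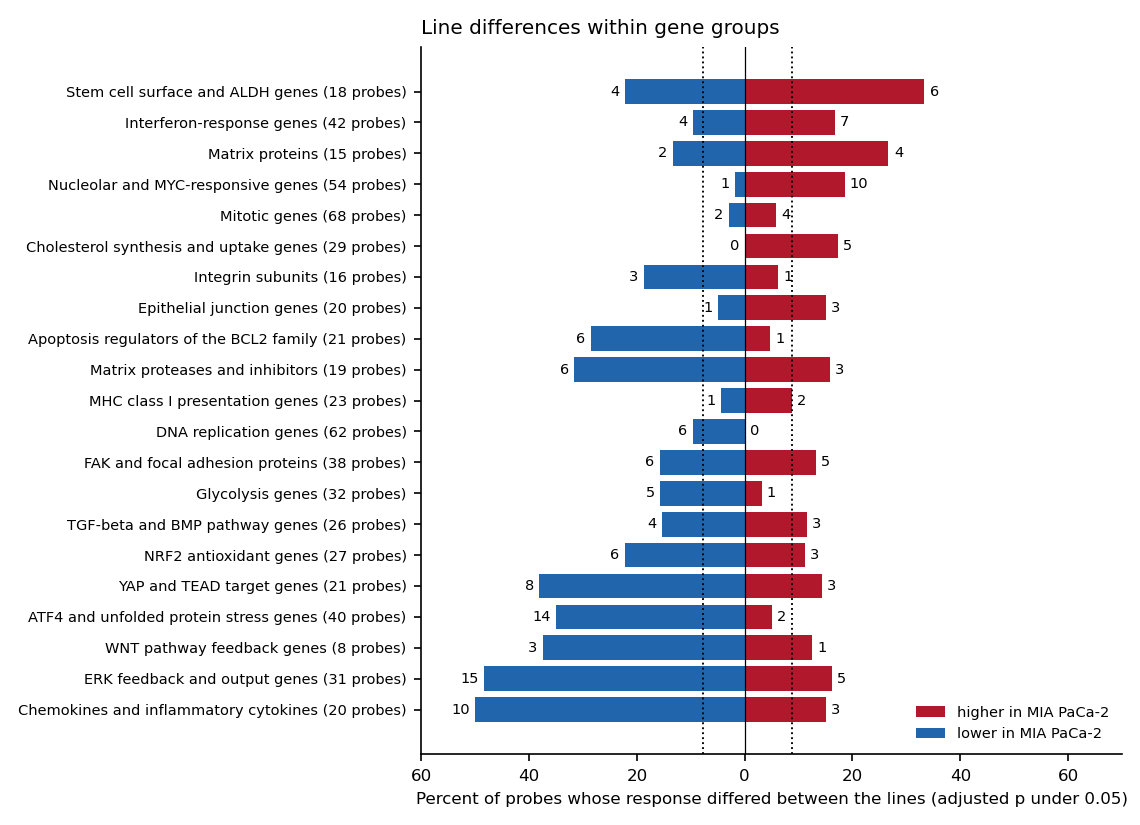
Percent of each gene group's member probes with a response that was higher (red, to the right) or lower (blue, to the left) in MIA PaCa-2, with the number of probes at each bar's end and the percent over all members as dotted lines (8.7 and 7.71). Chemokines (10 lower), ERK genes (15 lower), YAP and TEAD targets (8 lower), WNT genes (3 lower) and ATF4 genes (14 lower) extend furthest to the left.

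Genes of the amino acid and unfolded protein stress responses, many of them targets of the transcription factor ATF4, fell more often than they rose in MIA PaCa-2. Of 40 member probes, 14 had a lower and 2 a higher response in MIA PaCa-2, 40% against 16.4% of all members. The median was -0.36. Of the 40 probes, 17 fell and 11 rose in MIA PaCa-2, while none fell and 9 rose in Capan-1. ATF4 itself fell by 1.13 and 0.90 on 2 of its 3 probes in MIA PaCa-2 and differed from control by -0.08 and 0.12 in Capan-1. TRIB3, a pseudokinase induced by ATF4, was 9.65 and 9.79 with shCtrl in MIA PaCa-2 and between 8.49 and 8.70 on the FAK hairpin arrays, with a line difference of -1.39 (limma adjusted p = 4.2e-05). The asparagine synthetase ASNS fell by 0.67 in MIA PaCa-2, and the serine synthesis enzyme PHGDH fell by 0.35 in MIA PaCa-2 and rose by 0.62 in Capan-1. SLC7A11, the cystine importer, was an exception with a rise of 1.38 in MIA PaCa-2 and a line difference of 1.25 (limma adjusted p = 0.00035).

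FAK's partners at focal adhesions did not move as a group. Of 38 member probes, 5 had a higher and 6 a lower response in MIA PaCa-2, 28.9% against 16.4% of all members. The median was -0.10. VCL, the actin linker vinculin, was called higher on 2 probes, by 1.11 and 0.95 (limma adjusted p of 0.018 and 0.0007). The first of these missed the threshold without the first MIA PaCa-2 or the first Capan-1 shCtrl array, at 0.99 and 0.98. PARVA, which joins integrin-linked kinase to actin, fell by 0.50 in MIA PaCa-2 and rose by 0.49 in Capan-1 on 1 of its 2 probes. TNS3, a tensin, rose by 0.89 in Capan-1 and differed from control by -0.06 in MIA PaCa-2. SRC, the kinase that FAK recruits, rose by 0.64 in Capan-1 and did not pass the test in MIA PaCa-2 (-0.22), with a line difference of -0.86 (limma adjusted p = 0.012).

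Among 16 integrin probes 1 was higher and 3 were lower, 25% against 16.4% of all members. ITGB4, the hemidesmosome integrin subunit, was undetected on the MIA PaCa-2 control arrays and lay between 5.69 and 5.93 with FAK hairpins, while its 6 Capan-1 arrays lay between 5.59 and 6.18. ITGB2, the leukocyte integrin subunit, rose in Capan-1 from 8.65 and 8.60 to between 9.29 and 10.21 and was between 5.33 and 5.83 in MIA PaCa-2, with a line difference of -1.38 (limma adjusted p = 0.00012).

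Matrix genes rose in MIA PaCa-2 where they were called. Of 15 member probes, 4 were higher and 2 lower, 40% against 16.4% of all members. COL1A2, a chain of type I collagen, was 5.69 and 5.77 with shCtrl in MIA PaCa-2, 8.44 and 8.42 with sh1209, and 9.36 and 9.28 with sh1319, and was detected on 2 of 6 Capan-1 arrays, at most at 5.16. COL17A1, a transmembrane collagen of hemidesmosomes, rose in MIA PaCa-2 from 8.27 and 8.33 to between 10.34 and 10.72 and differed from control by -0.01 in Capan-1. The line difference was 2.26 for COL17A1 (limma adjusted p = 3.7e-05), and that of COL1A2, undetected with sh1209 in Capan-1, passed with no measured size (limma adjusted p = 8.7e-06). LAMB1, a laminin chain, was undetected on the MIA PaCa-2 control arrays and lay between 5.25 and 5.90 with FAK hairpins on 1 probe, and its second probe did not pass. AGRN, the heparan sulfate proteoglycan agrin, rose by 0.79 in Capan-1 and differed from control by -0.45 in MIA PaCa-2.

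Of the 7 fibroblast markers, COL3A1 was the one detected in MIA PaCa-2, on 4 of 6 arrays and up to 7.81, and DCN, PDGFRA, PDGFRB, THY1, FAP and LUM were detected on none of them. The summed intensity of the list in MIA PaCa-2 was about 217 with shCtrl, 407 to 419 with sh1209 and 360 to 381 with sh1319, and between 206 and 228 in Capan-1. With COL3A1 the only marker detected in MIA PaCa-2, the rise in the sum there was a reading of that 1 gene. It is no measure of fibroblast number, which was not tested. In bulk RNA, fewer cells of a type and less RNA per cell cannot be told apart.

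Among proteases and their inhibitors, 3 of 19 probes were higher and 6 lower, KLK6 and SERPINE2 foremost. The share called was 47.4%, against 16.4% of all members. TIMP2, an inhibitor of metalloproteinases, fell by 0.61 in MIA PaCa-2 and rose by 0.86 in Capan-1, with a line difference of -1.47 (limma adjusted p = 0.0002) on 1 of its 2 probes. SERPINB5, the epithelial serpin maspin, became detectable in MIA PaCa-2 with sh1209 alone, at 6.44 and 6.64. Of 20 epithelial junction probes 3 were higher and 1 lower, a share of 20%, near the 16.4% of all members. CLDN1, a tight junction claudin, rose in both lines, in MIA PaCa-2 from 6.08 and 5.98 to between 8.79 and 10.38 and in Capan-1 from 10.54 and 10.38 to between 11.78 and 11.92. The rise was larger in MIA PaCa-2 (line difference 2.14, limma adjusted p = 2e-06). ACTA2, smooth muscle actin, was undetected on the MIA PaCa-2 control arrays and higher by at least 2.04-fold under sh1209 and 5.47-fold under sh1319.

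In the TGF-beta and BMP pathway 3 of 26 probes were higher and 4 lower, 26.9% against 16.4% of all members, and the receptors moved apart. TGFBR2, the type II receptor, was 6.38 and 6.31 with shCtrl in MIA PaCa-2 and undetected with either FAK hairpin, at least 3.2-fold lower under sh1209 and 3.12-fold under sh1319, while in Capan-1 its change was 0.01. TGFBR3, the co-receptor betaglycan, rose in MIA PaCa-2 from 6.03 and 6.23 to between 8.52 and 10.60 and by 0.66 in Capan-1. The line difference was 2.71 for TGFBR3 (limma adjusted p = 1.2e-06) and passed for TGFBR2 (limma adjusted p = 2.7e-06). ID1, a BMP target, on 1 of its 2 probes fell by 0.81 in Capan-1 and differed from control by 0.22 in MIA PaCa-2. DKK1, the secreted WNT antagonist, fell in both lines, from 9.33 and 9.33 in MIA PaCa-2 to 5.02 and 4.72 with sh1209 and 6.32 and 6.59 with sh1319, and by 1.40 in Capan-1. Of 8 WNT pathway probes 1 was higher and 3 lower, a share of 50%.

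Stem cell surface and aldehyde dehydrogenase (ALDH) genes, which have been used to mark tumour-initiating PDAC cells, gave 6 higher and 4 lower of 18 probes, which became 2 and 3 with scaling on the median of all probes. All 10 were ALDH or KLF4 probes, and no probe of CD44, EPCAM or MET passed. The share called was 55.6%, against 16.4% of all members. ALDH1A1, an isoform long used as a stem cell marker, rose in both lines. It was 9.70 and 9.68 with shCtrl in MIA PaCa-2, 12.02 and 12.09 with sh1209, and 12.41 and 12.32 with sh1319, and in Capan-1 6.66 and 6.63, 6.99 and 7.02, and 8.32 and 8.48. The rise was larger in MIA PaCa-2 (line difference 1.46, limma adjusted p = 2.6e-05). ALDH7A1 fell in MIA PaCa-2 from 10.64 and 10.66 to between 9.20 and 9.67 and did not pass the test in Capan-1 (0.21). ALDH1A3 rose in Capan-1 from 11.45 and 11.44 to between 11.88 and 12.26, with a line difference of -0.97 (limma adjusted p = 0.0022).

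Of the cell cycle genes called within a line, more fell than rose in both lines. Of 62 DNA replication probes, 27 fell and 1 rose in MIA PaCa-2, and 17 fell and 1 rose in Capan-1. The line difference passed for 6 of them, all lower in MIA PaCa-2, and for 6 of 68 mitotic probes, shares of 9.68% and 8.82% against 16.4% of all members. With scaling on the median of all probes these became 2 and 0. Of the mitotic probes 20 fell and 2 rose in MIA PaCa-2, while 23 fell and 1 rose in Capan-1. By hairpin the line difference was higher for 9 and lower for 2 DNA replication probes with sh1209, against 0 and 13 with sh1319. For mitotic probes it was higher for 11 and lower for 0 with sh1209, against 1 and 8 with sh1319. The test between hairpins called 19 of 62 and 15 of 68. Over all members 17.2% were called with sh1209, 16.4% with sh1319 and 17.2% between hairpins. The numbers of cell cycle probes called with each hairpin alone thus lay near the share over all members. TYMS, thymidylate synthase, was 11.38 and 11.38 with shCtrl in MIA PaCa-2, 11.03 and 11.03 with sh1209, and 9.00 and 9.03 with sh1319, with a line difference of -0.93. Among 54 nucleolar and MYC-responsive probes 10 were higher and 1 lower in MIA PaCa-2, a share of 20.4%. These became 2 and 1 when arrays were scaled on the median of all probes. MYC rose by 0.34 in MIA PaCa-2 and fell by 0.67 in Capan-1.

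In the remaining groups the apoptosis regulators gave 1 higher and 6 lower of 21 probes, with BNIP3L down by 0.90 in MIA PaCa-2 and up by 0.74 in Capan-1, and BID on 1 of its probes down by 0.66 and up by 0.45. NRF2 antioxidant genes gave 3 higher and 6 lower of 27, with the ferritin heavy chain FTH1 down by 1.43 in MIA PaCa-2 and a line difference of -1.62. Glycolysis genes gave 1 higher and 5 lower of 32, with the neuronal enolase ENO2 down by 1.41 in MIA PaCa-2. The share called was 33.3% for apoptosis regulators, 33.3% for NRF2 genes and 18.8% for glycolysis genes, against 16.4% of all members. Glycolysis genes thus lay near the share over all members.

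The line difference itself depended on the hairpin for many genes. It was called for 2904 members with sh1209 (17.2%) and for 2768 with sh1319 (16.4%), sets that share the control arrays. The test between hairpins, in which the control arrays cancel, called 2901 members (17.2%). Of the 2764 probes with a line difference over both hairpins, 911 also differed between hairpins, and for 123 the hairpins had opposite signs.

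The line difference of the interferon-response genes changed direction with the hairpin. With sh1209 1 of 42 probes was higher and 13 lower in MIA PaCa-2, and with sh1319 18 were higher and 2 lower. The median line differences were -0.40 and 0.64, and the hairpin test called 29 of 42, against 17.2% of all members. Within MIA PaCa-2 the median change was -0.03 with sh1209 and 0.61 with sh1319, and within Capan-1 it was 0.42 and -0.06. Averaged over both hairpins, 7 were higher and 4 lower (26.2%, against 16.4% of all members), which became 1 and 4 with scaling on the median of all probes. UBE2L6, the ISG15-conjugating enzyme, was 9.21 and 9.19 with shCtrl in MIA PaCa-2, 8.06 and 8.01 with sh1209, and 10.00 and 9.85 with sh1319, while it rose in Capan-1 with both. BST2, above, differed from this pattern in rising alike with both hairpins, and IRF9, a subunit of the interferon-activated ISGF3 complex, in a negative line difference with both hairpins, averaging -0.86 (limma adjusted p = 0.0033).

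Antigen presentation by MHC class I gave 0 higher and 8 lower probes of 23 with sh1209, and 7 higher and 0 lower with sh1319. Over all members 17.2% were called with sh1209, 16.4% with sh1319 and 17.2% between hairpins. Cholesterol synthesis and uptake genes gave 1 higher and 6 lower of 29 with sh1209, and 12 higher and 0 lower with sh1319, with 19 of 29 called between hairpins. HMGCS1, which makes the HMG-CoA of the pathway, was 8.64 and 8.79 with shCtrl in MIA PaCa-2, 8.48 and 8.54 with sh1209, and 10.76 and 10.62 with sh1319. Its 6 Capan-1 arrays lay between 9.30 and 9.89, and its line differences were -0.68 and 1.90. The 5 cholesterol probes called over both hairpins (17.2%, against 16.4% of all members) became 0 with scaling on the median of all probes. Chemokines gave 3 higher and 14 lower of 20 with sh1209 and 5 higher and 5 lower with sh1319. Lower calls were closer in number between hairpins for the ERK genes, 13 with sh1209 and 17 with sh1319, and the ATF4 genes, 11 and 12. The hairpin test still called 14 of 31 ERK probes and 16 of 40 ATF4 probes, so many probes of these groups differed between hairpins. It called 1 of 18 ALDH and stem cell probes.

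**Figure D5:**
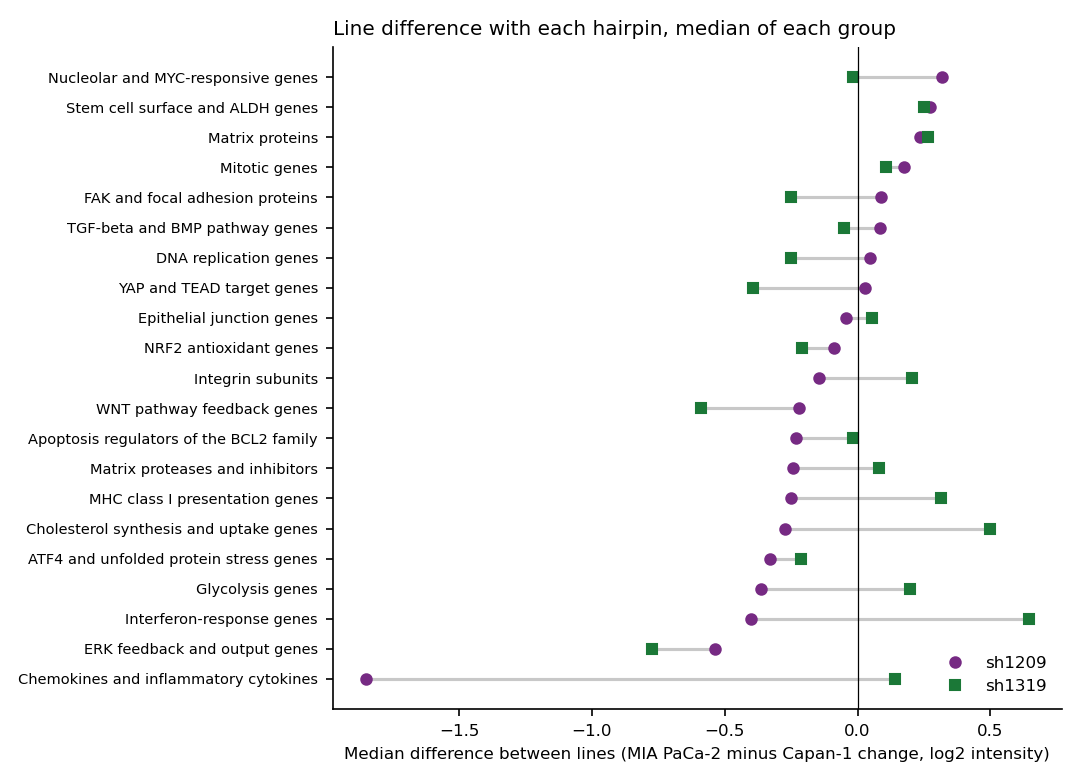
Median line difference (x axis, MIA PaCa-2 change minus Capan-1 change, log2 intensity) of each gene group (y axis) with sh1209 (circles) and sh1319 (squares), which share the shCtrl arrays. The hairpins lie on opposite sides of 0 for chemokines, interferon-response, cholesterol, MHC class I and glycolysis genes, among others, and on the same side for ERK and ATF4 genes.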

How the data were processed

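RNA from 2 PDAC lines with 3 hairpins each was hybridised to Illumina HumanHT-12 v4 bead arrays. Per the labels and file headers, the authors deposited 1 summarised intensity and 1 detection p-value per probe and array, exported with GenomeStudio 2011.1 (the submitters' processing notes), with no background correction or normalization stated. The detection p-value compares a probe with the chip's negative controls. The data were read in R 4.3.3, background-corrected with limma 3.58.1 (nec, offset 16, from the detection p-values), quantile-normalized and put on the log2 scale. An intensity below background is set near the offset, which shrinks the change of dim genes, and where no array of a group detected a probe, a change against that group is given as a bound (its fitted value stands only in figures, list medians and the closing section). Probes that are no ERCC spike-in with a detection p-value under 0.05 on at least 2 of 12 arrays (24207) entered 1 limma fit of 6 group means, leaving 6 residual degrees of freedom, with Benjamini-Hochberg adjustment over all of these probes. The line difference was tested two-sided as an interaction contrast. Probe names were matched to RefSeq symbols: 13519 of the 16848 member probes had 1 current symbol, and names without a match were kept as deposited. Probe sequences were not used, so probes of near-identical genes may read several.

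The members, gene lists and tests were chosen with earlier results of these data known, and the list counts are descriptions. Genes were named by rule: PTK2, the 8 largest line differences each way among probes with 1 current symbol that were detected in every group and had the same sign with each hairpin, the 5 largest opposite changes each way, the 4 largest each way with an undetected group, and up to 4 genes a list, with other list members named as examples after their values were seen. Within lists, the probe with the larger line difference stood for a gene with several. On simulated data with the same 24207 probes, 98.5% of 200 line differences of 1.5 were called, and 29% of 200 of 0.75, with 4.37% and 3.33% of calls false. The simulated noise was independent and normal, both hairpins had the same effect, and no other probe changed. These shares therefore do not give the error rate of the calls on the real arrays. The methods' t-test between hairpin and control arrays of a line, array weights, other normalizations and filters, a replicate block and leaving out each array were run as alternatives. Precision is limited by 2 arrays a group. Figures were drawn with matplotlib 3.10.9.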

Additional observations from a re-analysis of the deposited data

Results flagged for a closer look

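The responses of the 2 lines were compared by the interaction contrast of limma. Each result here passed it at an adjusted p under 0.05, except the count between hairpins, which passed the hairpin contrast at that threshold. In number, 2764 probes differed between lines and 311 changed in opposite directions. The hairpins differed in the line difference for 2901 probes, 911 of them among the 2764. The targeted PTK2 differed by -1.17. The line differences higher in MIA PaCa-2 were 5.91 for AKR1C4, 4.35 for BAMBI, 4.26 for TFPI, 3.45 for BST2, 3.26 for FSCN1, 3.12 for SLC39A8, 2.98 for CAV1, 2.91 for FAR2, 5.19 for ANXA10, 2.63 for CALB2, 2.23 for ELOVL6, 2.28 for SEMA3A, 4.55 for PDLIM1, 4.37 for SFN and 4.16 for HAS3. Those lower in MIA PaCa-2 were -6.13 for HLA-DRA, -3.87 and -4.64 for the APOBEC3G probes, -3.76 for SERPINA3, -3.45 for CXCL8, -3.42 for TGM2, -3.40 for CXCL1, -3.31 and -4.07 for the CXCL6 probes, -3.30 for CCN2, -2.93 for PMEPA1, -2.19 for BIRC3, -2.29 for CCDC9B, -5.94 for KLK6 and -4.99 for TUBB2B. For CALB2, BIRC3, SERPINA3, TGM2 and CXCL1 the size was set mainly by sh1209. The values of ANXA10, ELOVL6, PDLIM1, SFN, HAS3, PMEPA1, KLK6 and TUBB2B, and the larger ones of APOBEC3G and CXCL6, rest on a group in which no array detected the probe, and are fitted values with no measured size.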

How the results depend on the processing

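The 30 probes named for the size of their line difference kept direction and call under each other normalization, filter, block and left-out array that tested them, but the stricter filter did not test 18 of them. Of all 104 probes named by rule, 76 did so, 36 were not tested under that filter, and none reversed. With replicate arrays averaged first no probe was called: the counts of line differences and of opposite changes became 0, and PTK2 kept -1.17 with an adjusted p of 1. Without background correction 525 probes changed in opposite directions, against 311. Scaling on the median of all probes, chosen after seeing the data, shifted the median line difference from 0.01 to -0.08 and the median Capan-1 change to 0.14. It left 1392 line differences, 1414 with sh1209, 1334 with sh1319, 1425 between hairpins, 123 opposite, 2834 for MIA PaCa-2 and 2169 for Capan-1; the cause was not tested. Higher and lower calls became 2 and 4 for FAK and focal adhesion genes, 1 and 4 for proteases and 1 and 1 for epithelial junctions. A minimum change of 1 left 753 line differences, 1130 with sh1209, 1074 with sh1319, with 630 changes for MIA PaCa-2 and 241 for Capan-1. The methods' t-test after Benjamini-Hochberg called 281 and 76.

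Leaving out 1 array at a time gave 1736 to 2489 line differences, 1811 to 2674 with sh1319, 1896 to 2896 between hairpins, 150 to 272 opposite changes and 1500 to 3270 changes in Capan-1. The lowest values came without a Capan-1 shCtrl array, 1743 and 1736 line differences, 164 and 150 opposite changes and 1641 and 1500 Capan-1 changes without the first and second, and 1811 with sh1319 without the first. The exception was the test between hairpins, lowest without the first Capan-1 sh1209 array. Signal over background limits the size of a change where a group was undetected. Deviations of same-numbered arrays correlated between -0.08 and 0.19 over 15 pairs of groups, 2 of them over 0.1. These were taken after quantile normalization, which removes a shift common to whole arrays, so they cannot exclude a pairing by replicate number. The median deposited intensity was higher on the second array than on the first in every group. With the replicate block 2681 line differences were called, 2573 of them among the 2764.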

Other observations

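The MHC class II genes, which present antigen to helper T cells, were examined after the HLA-DRA values had been seen and are described with no test of the group. Of 8 member probes for 7 genes, 7 had a lower response in MIA PaCa-2 and none a higher one, where 16.4% of all members were called. The 7 lower probes include both HLA-DRA probes, whose values led to the choice of the group, so the count is partly set by that choice. Of the 8, 6 were called in opposite directions, and the median line difference was -2.38. All 7 lower probes also differed between hairpins, with the larger line difference under sh1209. HLA-DRB4 rose by 2.80 in Capan-1 with sh1209 and differed from control by -0.02 with sh1319. HLA-DRB6 passed in Capan-1 with sh1209 alone, and was undetected there with shCtrl and in MIA PaCa-2 with sh1319. HLA-DMA, a peptide-loading chaperone subunit, fell by 0.80 in MIA PaCa-2 with a line difference of -2.13, and HLA-DPA1, the alpha chain of HLA-DP, was undetected in 3 of the 6 groups and so has no measured size. HLA-DMB, the partner chain of HLA-DMA, did not pass the test in MIA PaCa-2 (-0.37), and its line difference was -2.80. The HLA-DRB3 probe did not pass (0.60). The HLA-DRB genes are near-identical, so their probes may read several of them. RN7SK, the small nuclear RNA that restrains transcription elongation, had a line difference of 2.80, which differed between hairpins by -2.48. A second RN7SK probe, undetected on the Capan-1 control arrays, passed both tests.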
